A study of Mus musculus with 20 samples.

Results

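The genes described here are those of the integrated stress response, with the enzymes that make serine and glycine from glucose and the amino acid transporters that belong to the same response. The list held 33 genes, and 31 of them were named by a probe of the array. Where a gene had several probes, the one with the highest mean log2 intensity over all 20 arrays stood for it. Pycr1 and Gdf15 had no probe in the probe table. Atf3, Cth, Slc7a11 and Stc2 lay in the dimmest 30% of all 26159 genes, below a mean log2 intensity of 4.83, and were not tested. That left 27 members among 18311 genes tested. A member that passes such a filter need not be bright in every group.

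RNA came from islets of male mice of the strain B6.V-Lep ob/ob, which lack leptin and become obese, and each array held the islets of 1 mouse. All 4 groups of 5 mice carried the mutation and had received the diet labelled HFD, for 18 or for 39 weeks, and at each age 1 group had then been moved for 2 days to the diet labelled CRD. The labels spell out neither abbreviation, and no group on another diet or of another genotype was analysed here. Age and weeks of HFD were the same number, so the effects of the one and the other cannot be told apart, and "age" is used as the short word. Islets were freed with collagenase and picked by hand, so the tissue was a mixture of endocrine and other cells, in which fewer cells of a type and less RNA per cell cannot be told apart.

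In the integrated stress response, kinases phosphorylate the translation factor eIF2, which slows protein synthesis in general and lets the mRNA of the transcription factor ATF4 be translated. ATF4, with partners of the ATF and C/EBP families, raises genes of amino acid uptake and synthesis, of tRNA charging and, under lasting stress, of cell death. Beta cells make large amounts of proinsulin in the endoplasmic reticulum, and the kinase PERK of that compartment is needed for their function. ATF4 is controlled to a large extent at translation, which an array of mRNA does not measure.

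Clustering on 1315 chemosensory receptor genes parted the arrays into 3 sets, A, B and C, for which the labels give no basis. Arrays of 1 set correlated at 0.925 to 0.978 over those genes and arrays of different sets at 0.847 to 0.916. Set A contained 12 arrays (4 of 18-week HFD, 1 of 18-week CRD, 3 of 39-week HFD and 4 of 39-week CRD). Set B contained 6 (1, 4, 1 and 0 in the same order) and set C had 1 array of each 39-week group. At 18 weeks the sets therefore ran nearly along the diet, so each comparison was fitted a second time with a term for the array set, here called the blocked fit, beside the first fit without it. Markers of exocrine acinar cells differed between arrays as well, and a further fit had their mean as a covariate. Of 23 acinar markers 21 had a probe, and the log2 of their summed intensity was 11.27 to 15.78 on the 18-week HFD arrays, 13.14 to 15.95 after CRD at 18 weeks, 15.77 to 16.61 on the 39-week HFD arrays and 13.41 to 15.88 after CRD at 39 weeks. In the 39-week HFD group 1 of the 21 stayed below an intensity of 16 on every array, and in each other group 2 did. Islet hormones and beta-cell markers (8 genes) had a summed level of 18.84 to 19.38 on the same scale on all arrays, with none below 16, and this sum is led by the hormones. Of these 8, 0 were called higher and 3 lower after CRD at 18 weeks (Slc30a8, Pdx1 and Ppy), and 0 higher and 2 lower at 39 weeks (Slc30a8 and Gcg). At 39 weeks the summed duct markers (4 with a probe) were at 12.25 to 13.19 on HFD and 13.30 to 13.52 after CRD, and the summed macrophage markers (8) at 12.27 to 12.95 and 11.59 to 11.92, both without overlap, while at 18 weeks both overlapped. The duct sum is led by Krt7, with 39-week means of 12.74 on HFD and 13.40 after CRD. The other duct markers with a probe had means of 2.51 to 5.21 there. C1qa leads the macrophage sum (11.95 and 10.81), and Csf1r was at 10.41 and 10.02. Cd68 stayed level (5.29 and 5.28), and Adgre1 (4.57 and 4.71) and Mrc1 (3.07 and 3.37) went the other way. The summed stellate and fibroblast markers (6) at 39 weeks were at 10.71 to 11.55 on HFD and 9.95 to 10.64 after CRD. These did not overlap either, while at 18 weeks they did. Acta2 leads that sum (39-week means of 10.69 and 9.94), and Dcn was at 6.61 and 4.84. Col1a1 (4.39 and 4.94) went the other way. The part of duct cells, macrophages, stellate cells and fibroblasts in the results on members was not tested.

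After 2 days of CRD Atf5 fell at both ages. At 39 weeks the factor Ddit3, the pseudokinase Trib3, the lipoprotein receptor Vldlr and both chains of the amino acid exchanger Slc7a5 and Slc3a2 fell as well. At 18 weeks Psat1 and Psph of serine synthesis, Aldh18a1 of proline synthesis and Eif2ak3, which encodes PERK, rose, and the mitochondrial folate enzyme Mthfd2 fell. Atf4 itself passed in neither comparison with all arrays. These calls are those of the first fit, and a call at 1 age alone does not show that the ages differ. In the blocked fit Slc7a5 and Vldlr fell and Psat1 rose at both ages. No member passed a test of the difference between the CRD effects with all arrays in either fit. A gene was called where limma's adjusted p over all 18311 genes was under 0.05, and each difference is CRD minus HFD in log2 units, followed by its standard error (SE).

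At 18 weeks 4 of the 27 members were called higher, where 17.0% of all genes tested were, and 2 lower, where 7.89% were. At 39 weeks 0 were called higher and 6 lower, where 3.5% and 4.84% of all genes were called, and 2 members were higher at an unadjusted limma p under 0.05, where 8.11% of all genes were. The share of members called higher at 18 weeks was thus close to that of all genes, and the share called lower at 39 weeks was above it. Members were chosen with earlier results of these data known, so a share above that of all genes can follow from the choice. At 39 weeks 21 of 27 members lay below 0, with a median of -0.26 against 0.02 over all genes, and at 18 weeks 17 of 27 lay above 0, with a median of 0.25 against 0.04. All 6 members called lower at 39 weeks had groups that did not overlap, which held for 8.82% of all genes in that direction, and 0 lay apart upward (3.88%). At 18 weeks 2 members lay apart upward and 1 downward (6.6% and 3.0% of all genes).

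In the blocked fit the 18-week counts were 2 higher and 4 lower (6.89% and 5.97% of all genes), and the 39-week counts 1 higher and 7 lower (7.49% and 7.79%). There, 4 members were called in the same direction at both ages, Atf5, Slc7a5 and Vldlr lower and Psat1 higher, where the fit without the term had 1, Atf5. The median at 18 weeks was then -0.02 against 0.01 over all genes, and at 39 weeks -0.19 against 0.01. With the mean of the acinar markers as a covariate, a fit added after the data were seen, the counts were 2 higher and 1 lower at 18 weeks (4.67% and 1.41%) and 0 and 2 at 39 weeks (2.65% and 1.92%). In that fit Atf5, Psat1 and Aldh18a1 were called at 18 weeks and Atf5 and Ddit3 at 39 weeks. Averaged over both ages, 3 members were higher and 6 lower (12.6% and 8.99% of all genes), 3 and 8 in the blocked fit (13.5% and 14.6%), and 3 and 6 with the covariate (12.4% and 8.75%). The 18-week counts rested in part on single arrays: they were 11 higher and 5 lower without HFD replicate 2, the only set B array of its group, and 6 and 4 without CRD replicate 2, the only set A array of its group. The counts over all genes rose with them, from 3120 higher and 1445 lower to 5102 and 3298 without the first and to 4379 and 2917 without the second.

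**Figure D1:**
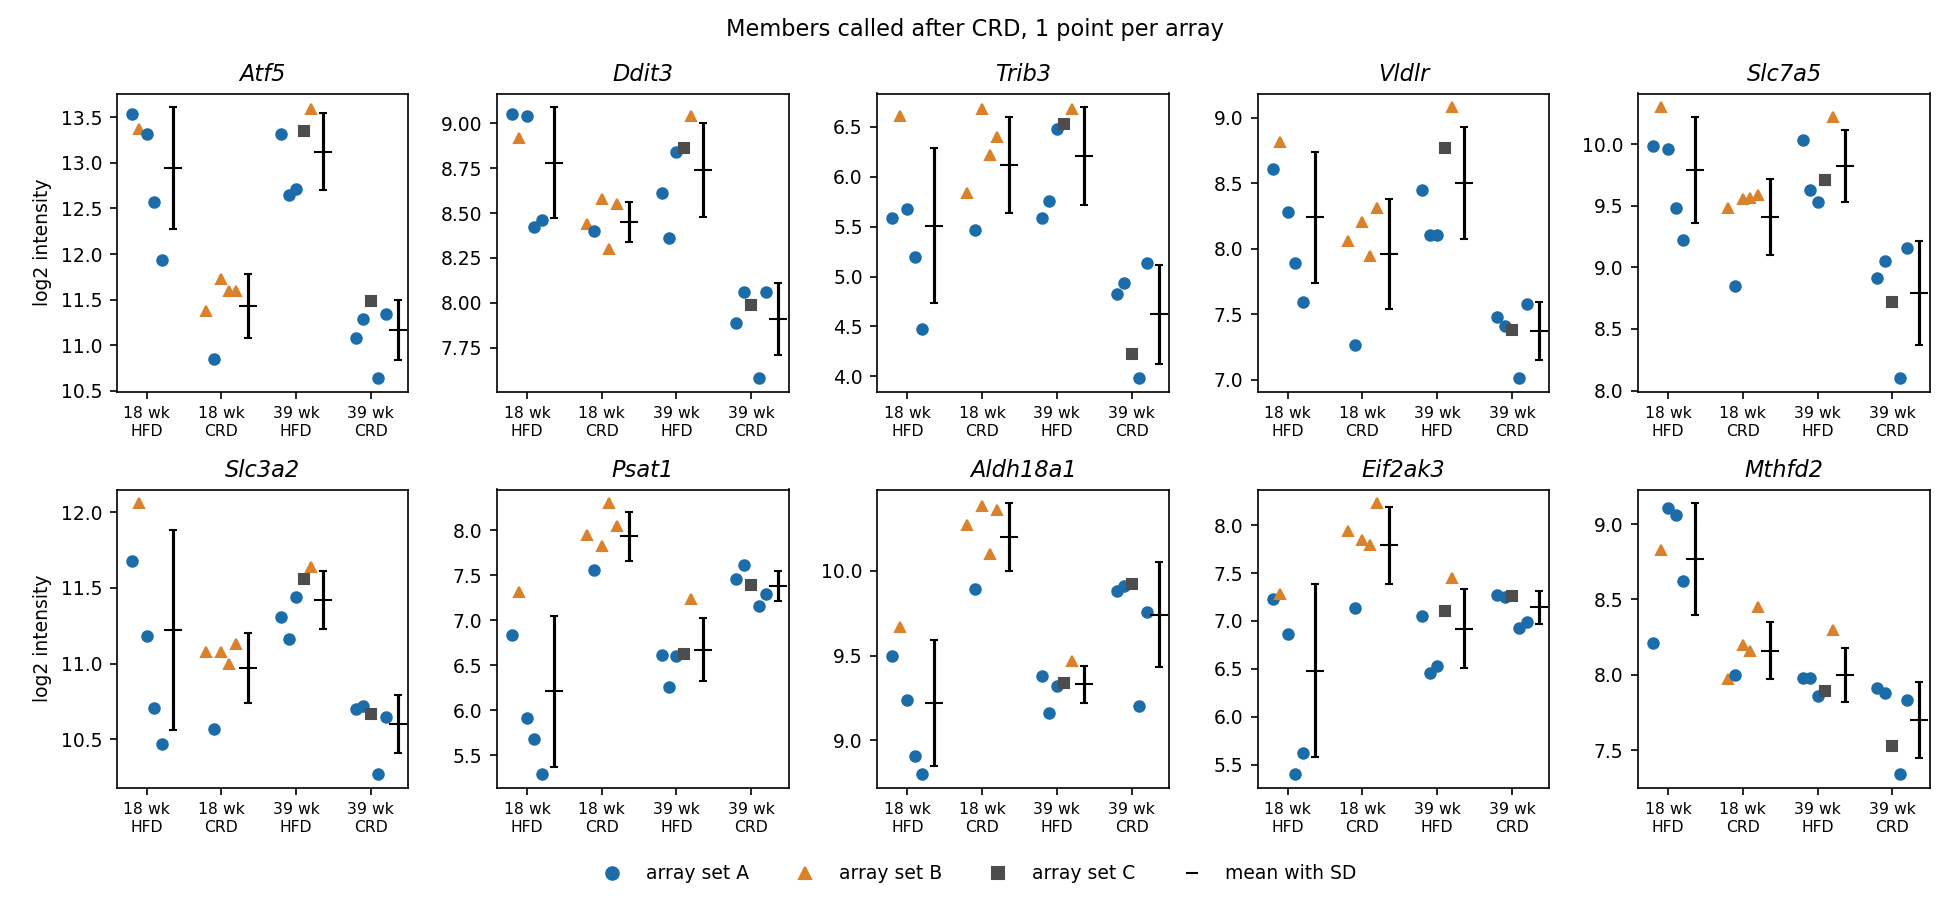
Log2 intensity (vertical axes) of 10 members in the 4 groups, with 1 point per array, its array set by colour and shape, and the mean with its SD (n = 5) beside each group. Atf5 lies lower after CRD at both ages, Ddit3, Trib3, Vldlr, Slc7a5 and Slc3a2 have their lowest mean in the 39-week CRD group, and Psat1 and Aldh18a1 their highest in the 18-week CRD group.

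**Figure D2:**
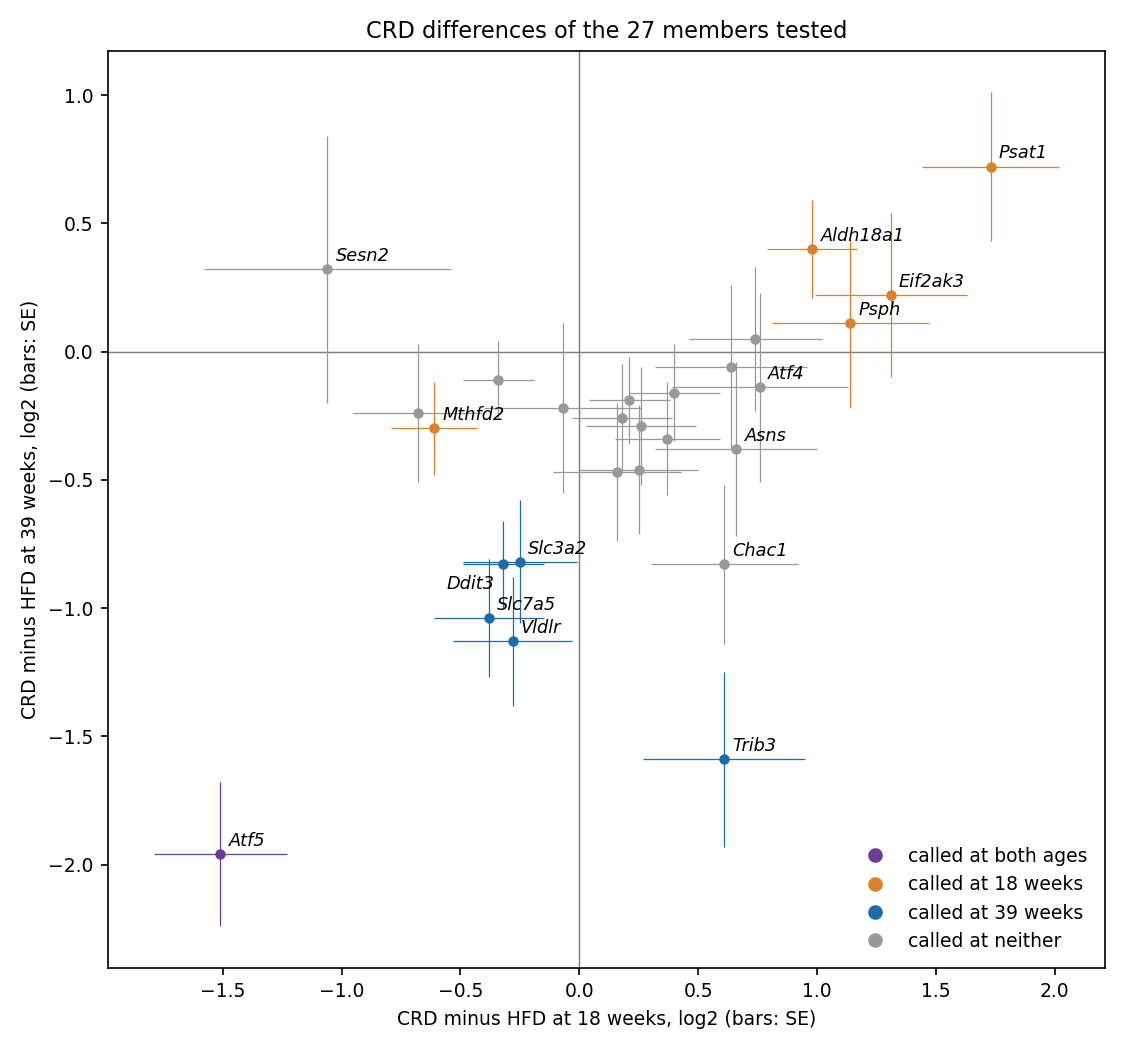
CRD minus HFD on the log2 scale at 18 weeks (horizontal) and at 39 weeks (vertical) for the 27 members tested, with SE bars and colour for the age at which a member was called in the fit without the array set term. These comparisons share no array. Atf5 lies low on both axes, Trib3 lies at 0.61 and -1.59, and Psat1 lies highest on both.

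Many genes of this response carry a C/EBP-ATF response element, a joint site for a C/EBP and an ATF factor, in the region around their start. The 300-base windows of RefSeq (GRCm38.p6, 250 bases before to 50 after each start) were searched for TGATGNAAN on both strands, with no other motif searched. It was found in 1299 of 32851 windows of all genes (3.95%) and in 9 of the 33 windows of members (27.3%), which covered 29 members. The 9 were Atf3, Chac1, Trib3, Slc7a11, Asns, Fgf21, Nupr1, Pycr1 and Vldlr. Members were listed as genes of this response, so a higher share among them can follow from that choice alone. The stretches of 5 members are shown because they include both members with the motif that were called (Trib3 and Vldlr) and 3 of the 4 tested ones that were not. Capitals mark the motif, and each reads 5′ to 3′ along the gene.
Trib3 (chr2:152344028-152344057, minus strand, motif from base 14 of the transcript): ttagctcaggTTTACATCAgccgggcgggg
Vldlr (chr19:27216795-27216852, plus strand, motif from base -201): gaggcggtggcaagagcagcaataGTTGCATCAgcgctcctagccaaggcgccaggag
Chac1 (chr2:119351024-119351081, plus strand, motif from base -194): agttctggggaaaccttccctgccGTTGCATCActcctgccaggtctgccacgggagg
Asns (chr6:7693210-7693256, minus strand, motif from base -23): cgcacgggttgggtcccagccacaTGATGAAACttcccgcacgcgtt
Nupr1 (chr7:126625548-126625605, minus strand, motif from base -111): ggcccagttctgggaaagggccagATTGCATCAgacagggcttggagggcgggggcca
The motif was not in the windows of Atf5, Ddit3, Psat1, Psph, Aldh18a1, Eif2ak3, Slc3a2 and Mthfd2, which says only that these letters are not there. Trib3 and Vldlr were called lower at 39 weeks (-1.59 and -1.13), while Chac1 (-0.83), Asns (-0.38), Nupr1 (-0.22) and Fgf21 (-0.11) were below 0 there without passing. Of the 6 members tested that had the motif, 2 were called lower at 39 weeks, where 4.84% of all genes were, and 0 at 18 weeks, where 17.0% were higher and 7.89% lower.

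Among the 6 transcription factors tested, 0 rose and 1 fell at 18 weeks, and 0 rose and 2 fell at 39 weeks. Atf5, which encodes a stress-induced relative of ATF4, had log2 intensities of 13.53, 13.37, 13.31, 12.57 and 11.94 on the 18-week HFD arrays (replicates 1 to 5) and 11.38, 10.85, 11.73, 11.60 and 11.59 after CRD. At 39 weeks its levels were 13.32, 12.65, 12.71, 13.35 and 13.59 on HFD and 11.08, 11.29, 11.49, 10.64 and 11.34 after CRD. Every CRD array lay below every HFD array of its age. The differences of Atf5 were -1.51 ± 0.28 (SE) at 18 weeks (limma adjusted p = 0.000759) and -1.96 ± 0.28 at 39 weeks (limma adjusted p = 0.00011). In the blocked fit they were -1.90 ± 0.28 and -1.83 ± 0.24. Inside array sets they were -1.99 in set A and -1.79 in set B at 18 weeks, and -1.80 in set A and -1.86 in set C at 39 weeks. At 18 weeks 1 of the 2 diets in each set had a single array, and in set C both had. With the acinar marker mean as a covariate they were -1.80 and -1.70. Atf5 was the member called in the 39-week comparison when only the 12 arrays of set A were fitted (-1.80, limma adjusted p = 0.0112).

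Ddit3 encodes CHOP, a factor of the later, death-promoting part of the response. Its levels at 39 weeks were 8.61, 8.36, 8.84, 8.86 and 9.04 on HFD and 7.89, 8.06, 7.99, 7.58 and 8.06 after CRD, without overlap. It fell by 0.83 ± 0.17 (limma adjusted p = 0.0037), and by 0.71 with the acinar marker mean as a covariate. At 18 weeks its levels were 9.05, 8.92, 9.04, 8.42 and 8.46 on HFD and 8.44, 8.40, 8.58, 8.30 and 8.55 after CRD, where the 2 lowest HFD arrays lay among the CRD arrays (-0.32 ± 0.17, limma adjusted p = 0.16). The 18-week difference of Ddit3 was -0.34 among set A arrays and -0.45 among those of set B, and the 39-week one -0.71 in set A and -0.88 in set C.

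Atf4, the central factor of the response, had a mean of 11.78 ± 0.99 (SD, n = 5) on HFD at 18 weeks, 12.54 ± 0.47 after CRD, 11.81 ± 0.48 on HFD at 39 weeks and 11.67 ± 0.42 after CRD. Its difference was 0.76 ± 0.37 (SE) at 18 weeks (limma adjusted p = 0.13) and -0.14 ± 0.37 at 39 weeks (limma adjusted p = 0.875). On the 18-week HFD arrays its levels were 12.44, 12.79, 12.21, 10.97 and 10.51, so replicates 4 and 5 lay well below the others. Without replicate 2, the highest of them and the only set B array of its group, Atf4 was called higher at 18 weeks (1.01 ± 0.36, limma adjusted p = 0.03). Over all groups Atf4 had a mean of 11.55 on set A arrays and 12.64 on set B arrays. The blocked Atf4 differences were 0.21 ± 0.34 and 0.04 ± 0.29. Within single sets they ranged from -0.08 in set C at 39 weeks to 0.24 in set A at 18 weeks. Cebpb and Cebpg, which encode C/EBP partners of ATF4, and the stress-induced cofactor gene Nupr1 passed in neither comparison. Their 18-week differences were 0.64 ± 0.32, 0.25 ± 0.25 and -0.07 ± 0.33, and their 39-week ones -0.06 ± 0.32, -0.46 ± 0.25 and -0.22 ± 0.33.

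Those 2 arrays recurred across the list. Replicates 4 and 5 of the 18-week HFD group were the lowest 2 of their group in 21 of the 27 members, where the same held for 39.4% of all genes tested. Both belong to set A. In the 39-week CRD group replicate 4 was the lowest array in 20 of the 27 members, against 42.3% of all genes. In the 18-week CRD group its only set A array, replicate 2, was lowest in 19, against 54.8% of all genes.

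The regulators of eIF2, of translation and of the growth kinase mTORC1 had 1 of 6 called higher at 18 weeks and 1 called lower at 39 weeks. Trib3 encodes a pseudokinase that is induced by ATF4 and CHOP and binds AKT. Its levels were 5.59, 6.61, 5.68, 5.20 and 4.47 on HFD and 5.84, 5.47, 6.68, 6.22 and 6.40 after CRD at 18 weeks, overlapping widely. At 39 weeks they were 5.59, 5.76, 6.48, 6.53 and 6.68 on HFD and 4.82, 4.94, 4.22, 3.98 and 5.14 after CRD, without overlap. Trib3 fell by 1.59 ± 0.34 at 39 weeks (limma adjusted p = 0.00486), and its 18-week difference was 0.61 ± 0.34 (limma adjusted p = 0.18). The blocked values were -1.40 ± 0.28 (limma adjusted p = 0.00165) and 0.05 ± 0.32. The 39-week difference of Trib3 was -1.22 in set A and -2.31 in set C, the last resting on 1 array a group. Its mean over all arrays was 5.62, not far above the filter, and with an offset of 16 added to the intensities the 39-week difference was -1.14 ± 0.26, still called. With the acinar marker mean as a covariate Trib3 was not called at 39 weeks (-1.27 ± 0.39, limma adjusted p = 0.0684).

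Eif2ak3 encodes PERK, the eIF2 kinase of the endoplasmic reticulum. Its levels at 18 weeks were 7.23, 7.28, 6.86, 5.40 and 5.62 on HFD and 7.94, 7.13, 7.84, 7.79 and 8.23 after CRD. The CRD array at 7.13 is the only one of set A in its group and lay below 2 HFD arrays, and replicates 4 and 5 on HFD lay more than 1 log2 unit below the rest. Eif2ak3 rose by 1.31 ± 0.32 (limma adjusted p = 0.00676), and was called neither in the blocked fit (0.80 ± 0.31, limma adjusted p = 0.104) nor with the acinar covariate (1.01 ± 0.38, limma adjusted p = 0.135). It was higher by 0.86 among set A arrays and by 0.67 among set B arrays. At 39 weeks its levels were 7.05, 6.46, 6.53, 7.10 and 7.45 on HFD and 7.27, 7.25, 7.26, 6.93 and 6.99 after CRD, where the HFD arrays enclosed the CRD arrays, a difference of 0.22 ± 0.32. Averaged over both ages Eif2ak3 was called higher in both fits (0.77 ± 0.23, and 0.60 ± 0.19 in the blocked fit).

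The remaining regulators passed in no CRD comparison. Ppp1r15a (GADD34), which directs a phosphatase to eIF2, differed by 0.40 ± 0.19 at 18 weeks and by -0.16 ± 0.19 at 39 weeks. Eif4ebp1, a repressor of cap-dependent translation, differed by 0.16 ± 0.27 and -0.47 ± 0.27, and Ddit4, an inhibitor of mTORC1, by 0.37 ± 0.22 and -0.34 ± 0.22. Sesn2, which encodes a leucine-sensing inhibitor of mTORC1, differed by -1.06 ± 0.52 and 0.32 ± 0.52.

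The 3 enzymes that turn a glycolytic intermediate into serine gave unlike values, and the differences between them were not tested. At 18 weeks 2 of the 5 serine, glycine and folate enzymes rose and 1 fell, and at 39 weeks 0 passed. Psat1, the transaminase of the middle step, had levels of 6.84, 7.31, 5.91, 5.68 and 5.29 on HFD and 7.94, 7.56, 7.82, 8.30 and 8.05 after CRD at 18 weeks, without overlap. At 39 weeks they were 6.61, 6.26, 6.60, 6.62 and 7.24 on HFD and 7.46, 7.61, 7.39, 7.16 and 7.29 after CRD, where 1 HFD array, the only one of set B, reached into the CRD range. Psat1 rose by 1.73 ± 0.29 at 18 weeks (limma adjusted p = 0.000327), and the 39-week difference was 0.72 ± 0.29 (limma adjusted p = 0.156). Psat1 rose at both ages in the blocked fit, by 1.21 ± 0.26 (limma adjusted p = 0.004) and 0.89 ± 0.23 (limma adjusted p = 0.0113). Its 4 differences inside sets were 1.63 (set A) and 0.72 (set B) at 18 weeks, and 0.89 (set A) and 0.77 (set C) at 39 weeks. A second, dimmer Psat1 probe had means of 3.95 ± 0.36 and 4.75 ± 0.24 (SD, n = 5) at 18 weeks and 3.60 ± 0.50 and 4.27 ± 0.17 at 39 weeks, higher after CRD at both ages.

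Psph, the phosphatase of the last step, had levels of 7.08, 7.38, 6.15, 5.33 and 5.18 on HFD and 7.32, 7.19, 7.31, 7.49 and 7.49 after CRD at 18 weeks. The CRD arrays lay close together, and the HFD array of set B (7.38) lay among them. Psph rose by 1.14 ± 0.33 (limma adjusted p = 0.0162). That call was lost in the blocked fit (0.68 ± 0.33, limma adjusted p = 0.213), with the acinar covariate (0.71 ± 0.37, limma adjusted p = 0.266) and without HFD replicate 4 (limma adjusted p = 0.0611) or 5 (limma adjusted p = 0.057), and the difference was 1.25 within set A but 0.02 within set B. At 39 weeks the levels of Psph were 6.95, 6.45, 6.78, 7.09 and 7.37 on HFD and 7.12, 7.21, 7.11, 6.58 and 7.16 after CRD, with the CRD arrays inside the HFD range, a difference of 0.11 ± 0.33. Phgdh, the dehydrogenase of the first step, differed by 0.21 ± 0.17 at 18 weeks and -0.19 ± 0.17 at 39 weeks. Shmt2, which makes glycine from serine in mitochondria, differed by 0.18 ± 0.21 and -0.26 ± 0.21.

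Mthfd2, the mitochondrial folate enzyme that uses the one-carbon unit released by Shmt2, went the other way. Its levels were 8.21, 8.83, 9.11, 9.06 and 8.62 on HFD and 7.97, 8.00, 8.20, 8.16 and 8.45 after CRD at 18 weeks, with 1 HFD array inside the CRD range. It fell by 0.61 ± 0.18 (limma adjusted p = 0.0204), and the blocked value was -0.73 ± 0.20, also called. The Mthfd2 call was lost without HFD replicate 3 or 4 or CRD replicate 1 (limma adjusted p = 0.0611, 0.065 and 0.0566) and with the acinar covariate (limma adjusted p = 0.249). At 39 weeks the levels were 7.98, 7.98, 7.86, 7.89 and 8.30 on HFD and 7.91, 7.88, 7.53, 7.34 and 7.83 after CRD, a difference of -0.30 ± 0.18 that did not pass.

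Among the other enzymes of amino acids and glutathione, 1 of 5 rose at 18 weeks and 0 passed at 39 weeks. Aldh18a1, which opens proline synthesis from glutamate, had levels of 9.50, 9.67, 9.24, 8.91 and 8.80 on HFD and 10.27, 9.89, 10.38, 10.10 and 10.36 after CRD at 18 weeks, without overlap. At 39 weeks they were 9.38, 9.16, 9.32, 9.34 and 9.47 on HFD and 9.88, 9.91, 9.92, 9.20 and 9.76 after CRD, where replicate 4 alone lay in the HFD range. Aldh18a1 rose by 0.98 ± 0.19 at 18 weeks (limma adjusted p = 0.000951) and by 0.75 ± 0.19 in the blocked fit. The 39-week difference was 0.40 ± 0.19 (limma adjusted p = 0.223), and 0.48 ± 0.16 with the array set term (limma adjusted p = 0.0517). Inside sets it was 0.78 (set A) and 0.61 (set B) at 18 weeks and 0.40 (set A) and 0.58 (set C) at 39 weeks, above 0 each time.

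Asns, which makes asparagine and is a standard reporter of ATF4, had means of 10.80 ± 1.00 and 11.46 ± 0.35 (SD, n = 5) at 18 weeks and 11.36 ± 0.36 and 10.99 ± 0.22 at 39 weeks. The differences were 0.66 ± 0.34 (limma adjusted p = 0.148) and -0.38 ± 0.34 (limma adjusted p = 0.604). At 18 weeks its HFD arrays ran from 9.73 to 11.95 and enclosed all CRD arrays. Chac1, an enzyme that degrades glutathione, differed by 0.61 ± 0.31 and -0.83 ± 0.31 (limma adjusted p = 0.148 and 0.119). Gpt2, the mitochondrial alanine transaminase, differed by 0.74 ± 0.28 (limma adjusted p = 0.0561) and 0.05 ± 0.28, and the blocked 18-week value of Gpt2 was 0.18 ± 0.21. A second, dimmer Gpt2 probe had means of 3.80 ± 0.51 and 3.55 ± 1.60 (SD, n = 5) at 18 weeks, the opposite direction to the probe used, and 2.41 ± 0.52 and 3.01 ± 0.31 at 39 weeks. Cbs, which joins homocysteine and serine, differed by 0.26 ± 0.23 and -0.29 ± 0.23.

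Of the 3 amino acid transporters tested, 0 passed at 18 weeks and 2 fell at 39 weeks. Slc7a5 encodes the light chain of the exchanger that imports leucine and other large neutral amino acids, and Slc3a2 the heavy chain that carries it to the membrane. Slc7a5 had levels of 9.98, 10.30, 9.96, 9.48 and 9.22 on HFD and 9.48, 8.85, 9.55, 9.56 and 9.59 after CRD at 18 weeks, with overlap. At 39 weeks they were 10.03, 9.63, 9.53, 9.71 and 10.22 on HFD and 8.91, 9.05, 8.72, 8.10 and 9.16 after CRD, without overlap. Slc7a5 fell by 1.04 ± 0.23 at 39 weeks (limma adjusted p = 0.00713), and its 18-week difference was -0.38 ± 0.23 (limma adjusted p = 0.221). Slc7a5 fell at both ages in the blocked fit, by 0.74 ± 0.22 (limma adjusted p = 0.0304) and 0.92 ± 0.19 (limma adjusted p = 0.00253). Inside sets Slc7a5 differed by -0.80 (set A) and -0.75 (set B) at 18 weeks, and by -0.92 (set A) and -0.99 (set C) at 39 weeks. With the acinar covariate it was not called at 39 weeks (-0.86 ± 0.27, limma adjusted p = 0.0816).

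Slc3a2 had levels of 11.31, 11.16, 11.44, 11.56 and 11.64 on HFD and 10.70, 10.72, 10.67, 10.27 and 10.65 after CRD at 39 weeks, without overlap. It fell by 0.82 ± 0.24 (limma adjusted p = 0.0352), and by 0.69 ± 0.19 in the blocked fit. The Slc3a2 call was near the threshold and was lost on leaving out any 1 of 9 of the 10 arrays of that comparison (limma adjusted p = 0.0568 to 0.0915), and with the acinar covariate (-0.59 ± 0.27, limma adjusted p = 0.298). At 18 weeks the levels were 11.68, 12.06, 11.18, 10.71 and 10.47 on HFD and 11.08, 10.57, 11.08, 11.00 and 11.13 after CRD, a difference of -0.25 ± 0.24. Slc7a3, a transporter of arginine and lysine, was not called in the first fit (-0.68 ± 0.27 at 18 weeks, limma adjusted p = 0.0722, and -0.24 ± 0.27 at 39 weeks). In the blocked fit Slc7a3 fell at 39 weeks by 0.42 ± 0.13 (limma adjusted p = 0.036). Its 39-week levels were 6.63, 6.66, 6.71, 5.80 and 5.70 on HFD and 6.17, 6.27, 5.47, 6.22 and 6.20 after CRD, where the 3 low values (5.80, 5.70 and 5.47) are the arrays of sets B and C. At 18 weeks they were 6.25, 5.32, 6.34, 6.29 and 6.75 on HFD and 5.29, 6.09, 5.13, 5.39 and 5.65 after CRD, where the low HFD array (5.32) is its only one of set B and the high CRD array (6.09) its only one of set A.

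Vldlr, a receptor of triglyceride-rich lipoproteins that ATF4 induces under stress of the endoplasmic reticulum, had levels of 8.45, 8.10, 8.10, 8.77 and 9.08 on HFD and 7.48, 7.41, 7.38, 7.01 and 7.58 after CRD at 39 weeks, without overlap. It fell by 1.13 ± 0.25 (limma adjusted p = 0.0067). At 18 weeks the levels were 8.61, 8.81, 8.28, 7.89 and 7.59 on HFD and 8.06, 7.26, 8.20, 7.94 and 8.31 after CRD, overlapping over most of their range (-0.28 ± 0.25). Vldlr fell at both ages in the blocked fit, by 0.76 ± 0.21 (limma adjusted p = 0.0187) and 0.97 ± 0.18 (limma adjusted p = 0.000891). Inside sets Vldlr differed by -0.84 (set A) and -0.68 (set B) at 18 weeks, and by -0.85 (set A) and -1.39 (set C) at 39 weeks. With the acinar covariate it was not called at 39 weeks (-0.91 ± 0.29, limma adjusted p = 0.0842). Fgf21, which encodes a stress-induced hormone, differed by -0.34 ± 0.15 (limma adjusted p = 0.0925) and -0.11 ± 0.15, and its levels lay between 6.11 and 6.86 on all arrays.

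The 4 members below the filter were dim throughout. Atf3, an early stress factor, ranged from 0.78 to 3.69, and 3 of its 5 18-week CRD arrays lay between 3.31 and 3.69, while the highest value in any other group was 2.22. Stc2, a secreted glycoprotein, ranged from 0.55 to 3.99, with 2 CRD arrays at 18 weeks at 3.93 and 3.99. Slc7a11, the cystine transporter, ranged from 0.56 to 3.34, and Cth, which makes cysteine, from 0.59 to 3.44. These values lie near the floor of the table, where order has little meaning, and no fold change is given.

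**Figure D3:**
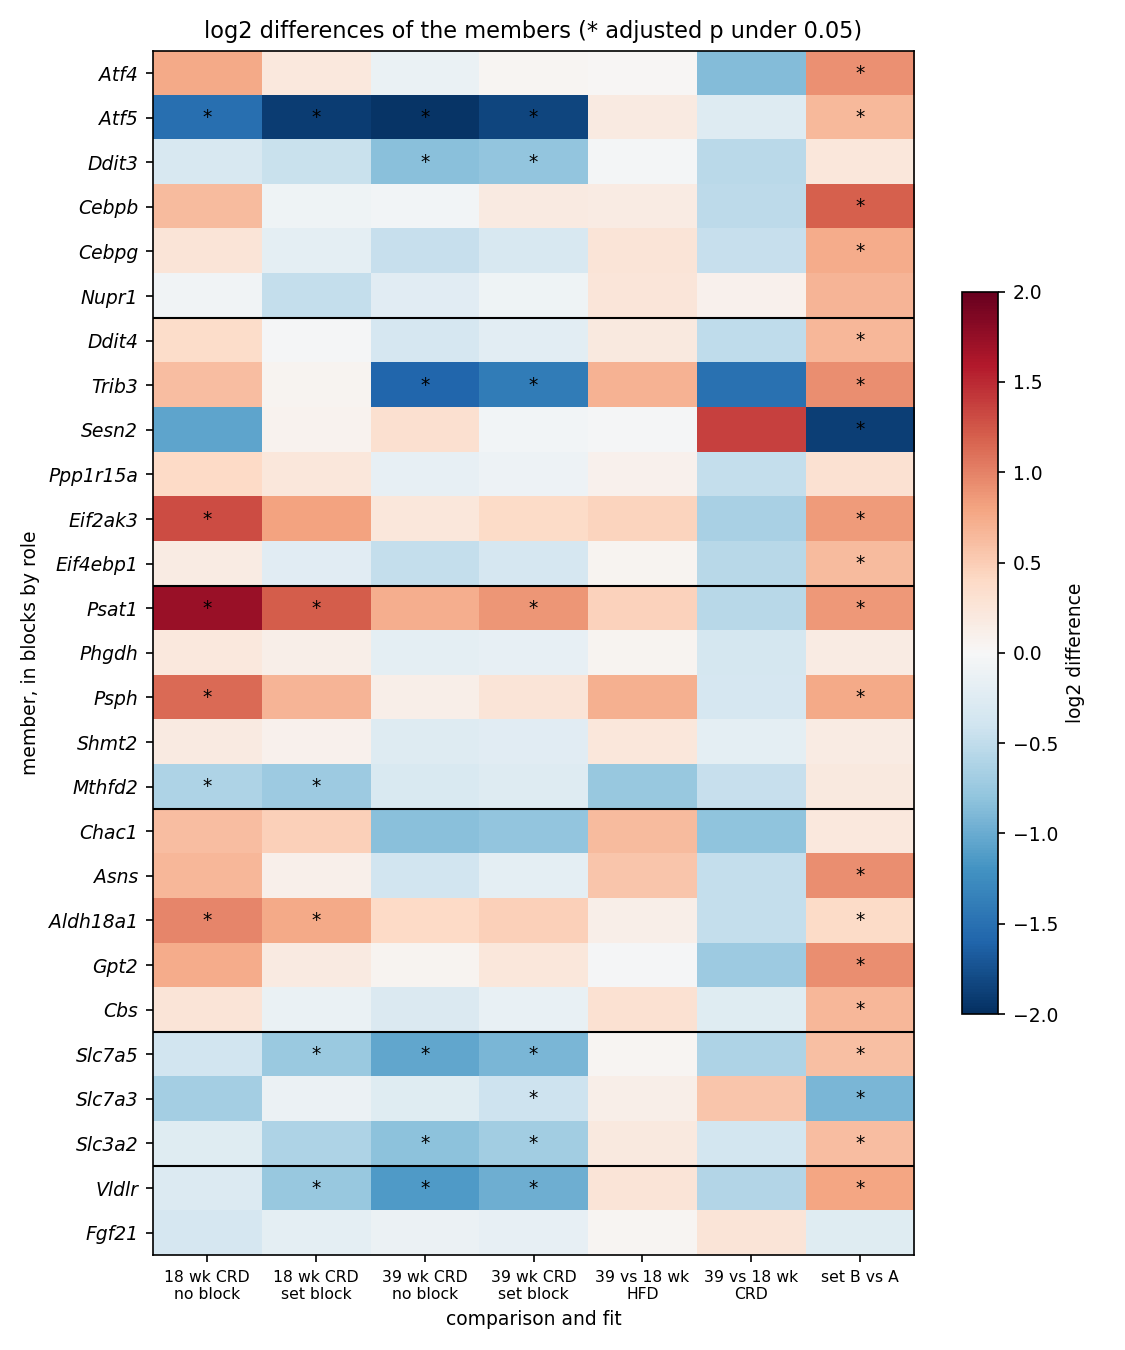
Log2 differences of the 27 members tested (rows, in blocks by role) in 4 CRD columns (18 and 39 weeks, first fit and blocked fit), 2 age columns and 1 column for array set B minus set A. Colour runs from -2 to 2 and asterisks mark an adjusted p under 0.05. Atf5 is blue and marked in all 4 CRD columns, the last column is red and marked for most members, and the age columns carry no mark.

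Between 18 and 39 weeks no member passed the test in the first fit. On HFD 0 of 27 were called higher and 0 lower at 39 against 18 weeks, where 0.071% and 0.0218% of all genes were called. At an unadjusted limma p under 0.05 there were 1 higher and 1 lower, where 1.92% and 4.69% of all genes were, close to the same share. Mthfd2 was nearest to the threshold, with a difference of -0.76 ± 0.18 (limma adjusted p = 0.0808), and it fell by 0.73 ± 0.17 in the blocked fit (limma adjusted p = 0.0463), where 0.748% of all genes were called lower. Its HFD levels were 8.21 to 9.11 at 18 weeks and 7.86 to 8.30 at 39 weeks. The 18-week array at 8.21 was its only overlap, and without that array the difference was -0.90 ± 0.17 (limma adjusted p = 0.00999). Acinar markers were higher at 39 weeks on HFD, with a median difference of 4.41 over the 19 tested and 11 called. With the acinar marker mean as a covariate Mthfd2 was not called in this comparison (-0.45 ± 0.28, limma adjusted p = 0.999).

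After CRD, 0 members were called in either direction at 39 against 18 weeks (0.0% of all genes higher and 0.0273% lower), and at an unadjusted limma p under 0.05 there were 1 higher and 11 lower (15.2% and 20.4% of all genes). The members had a median of -0.47, against -0.18 over all genes, and 23 of 27 lay below 0. The blocked median was -0.02 and 16 of 27 lay below 0. Trib3 (-1.50 ± 0.34, limma adjusted p = 0.0936), Ddit3 (-0.54 ± 0.17, limma adjusted p = 0.1) and Mthfd2 (-0.46 ± 0.18, limma adjusted p = 0.109) had groups that did not overlap, which held for 3.68% of all genes in that direction. Both age comparisons use the same arrays as the CRD comparisons. This one rests on 18-week CRD replicate 2: without it 9 members were called lower and 1, Sesn2, higher, among 3594 and 2872 of all genes.

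Whether the CRD effect itself differed between the ages was tested as a contrast. Of the 27 members 0 passed, as did 0.0% of all genes in each direction, in the first fit as in the blocked fit. At an unadjusted limma p under 0.05 there were 0 higher and 10 lower in the first fit (7.2% and 14.9% of all genes), and 0 and 2 in the blocked fit (0.754% and 1.03%). Trib3 had the largest difference between the effects among the members, -2.20 ± 0.48 (limma adjusted p = 0.222), and Chac1 followed with -1.44 ± 0.44. The median was -0.62 over the members and -0.16 over all genes, and 23 of 27 lay below 0. The blocked median over the members was -0.19, with Trib3 at -1.45 ± 0.45 and Chac1 at -1.27 ± 0.51. Without 18-week HFD replicate 2, the only array of set B in that group, 8 members passed: Trib3 (-2.47 ± 0.44, limma adjusted p = 0.0429), Chac1, Asns, Psat1, Psph, Vldlr, Eif2ak3 and Ddit4. Over all genes 1129 were then called higher and 2747 lower.

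With both directions counted together, members differed between array sets about as often as other genes. A larger share of the members was higher in set B, however, and a smaller share lower. In the blocked fit 17 of 27 members were higher in set B than in set A and 2 lower, where 42.2% and 25.4% of all genes were called. Cebpb was higher by 1.20 ± 0.18, with levels of 6.39 to 7.51 in set A and 7.91 to 8.43 in set B, so the sets did not overlap whatever the diet. Sesn2 was lower by 1.89 ± 0.32, with 10.62 to 12.85 in set A and 9.54 to 10.08 in set B, again without overlap. Slc7a3 was lower by 0.92 ± 0.13, with 6.09 to 6.75 against 5.13 to 5.70. The 18-week CRD difference of Sesn2 went from -1.06 ± 0.52 to 0.07 ± 0.36 in the blocked fit, and that of Cebpb from 0.64 ± 0.32 to -0.08 ± 0.21. Sesn2 also had a wide spread inside groups, with a pooled within-group SD of 0.90, above 95.8% of the genes tested, while that of Fgf21 (0.17) was above 1.52%. The median SD of the members was 0.44, against 0.41 over all genes.

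**Figure D4:**
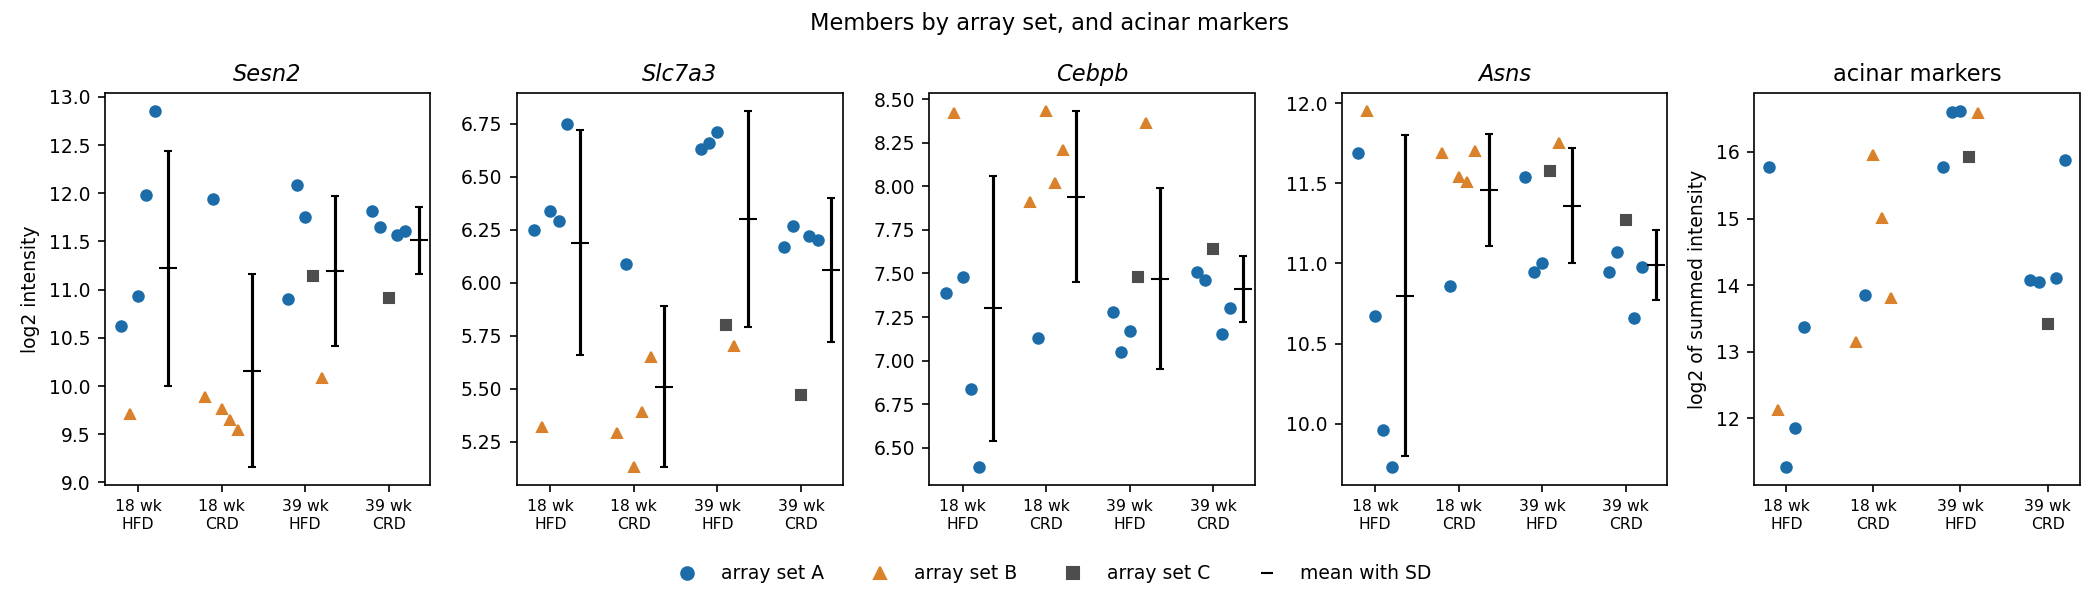
Log2 intensity of 4 members and the log2 of the summed intensity of 21 acinar markers (vertical axes) in the 4 groups, with 1 point per array, its array set by colour and shape, and the mean with its SD (n = 5) for the genes. Sesn2 and Slc7a3 lie low and Cebpb lies high on every set B array, and the acinar level is 15.77 or more on all 39-week HFD arrays.

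Other genes near the same pathway were counted in 5 lists, to be read against the shares of all genes called higher and lower, which were 17.0% and 7.89% at 18 weeks, 3.5% and 4.84% at 39 weeks, and 6.89% and 5.97%, and 7.49% and 7.79%, in the blocked fit. Of the targets of XBP1 and ATF6, the other branches of the response to unfolded proteins, 19 of 23 were called higher at 18 weeks and 10 of 23 at 39 weeks, with 0 lower and medians of 1.20 and 0.53. The blocked counts were 10 and 12, and those with the acinar covariate 11 and 7. Creld2, an endoplasmic reticulum chaperone, rose by 2.65 ± 0.26 at 18 weeks and 1.77 ± 0.26 at 39 weeks. Derl3, which helps to clear misfolded proteins, had means of 4.57 and 4.17 on HFD, below the level of the filter. After CRD they were 7.75 and 6.93, so Derl3 passed the filter through its CRD arrays. The 18-week count of this list includes it. Set beside Creld2 and Derl3, Ddit3 differed by -0.32 and -0.83 and Trib3 by 0.61 and -1.59 in the same comparisons. Acinar cells also express genes of this branch at high level, and the acinar markers had a median of 2.37 at 18 weeks (11 of 19 higher) and -2.14 at 39 weeks (1 higher, 4 lower).

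Aminoacyl-tRNA synthetases, of which many are ATF4 targets, had 10 of 19 called higher at 18 weeks (median 0.77) and 1 at 39 weeks (median -0.06), and 5 and 3 in the blocked fit, so that the single call at 39 weeks is near the background. The list behind these counts also named Xpot, which is not a synthetase. Hars, for histidine, rose by 1.55 ± 0.22 and 0.79 ± 0.22. Of 14 genes in a list of the other eIF2 kinases, eIF2 and its exchange factor, 6 rose and 2 fell at 18 weeks (median 0.69). That list also named Ppp1r15b, Eif2a, Ern1 and Atf6, which are none of these. At 39 weeks 1 rose, the exchange factor subunit Eif2b4 (0.95 ± 0.17 at 18 weeks and 0.63 ± 0.17 at 39 weeks). In the blocked fit Eif2b4 rose at both ages (0.78 ± 0.17 and 0.69 ± 0.15) and the kinase gene Eif2ak2 fell at 18 weeks (-0.70 ± 0.19).

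Of 14 further one-carbon and glycine genes 4 rose at 18 weeks, and 2 rose and 1 fell at 39 weeks. Gldc, which cleaves glycine, had means of 3.87 and 3.95 on HFD at 18 and 39 weeks, below the level of the filter. After CRD they were 6.37 and 6.19, so Gldc was tested through its CRD arrays and no fold is given. The counts of rising genes at both ages include it. Tyms, which makes thymidylate from a folate one-carbon unit, rose by 2.48 ± 0.30 and 2.04 ± 0.30. Mthfd1, the cytosolic counterpart of Mthfd2, fell by 1.40 ± 0.41 at 39 weeks. Among 15 further amino acid transporters 3 rose at 18 weeks, and 1 rose and 1 fell at 39 weeks, which is near the background at both ages. The glutamine carrier Slc1a5, counted as rising at both ages, also passed the filter through its CRD arrays. Its means were 4.35 and 4.46 on HFD and 5.82 and 5.68 after CRD. Slc7a6, counted as rising at 18 weeks, likewise had HFD means below the level of the filter (4.56 and 4.73, against 5.75 and 5.27 after CRD). Both were also called higher at both ages in the blocked fit. Slc38a7 fell by 0.78 ± 0.22 at 39 weeks. In the blocked fit these 2 lists had 2 higher and 0 lower, and 2 higher and 1 lower, at 18 weeks, and 2 higher and 2 lower each at 39 weeks.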

How the data were processed

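Islet RNA of 20 mice in 4 groups of 5 was measured on 1-colour arrays, whose number limits the precision. The deposited table lists the intensity of 59448 probes on each array, read, per the submitters' processing notes, with Agilent Feature Extraction 11. The sources used here name neither the background correction nor the normalizing software. All sorted columns were identical, so the authors' intensities had been quantile normalized, and the median was 36.39 on every array. From the deposited intensities log2 values were taken, with no offset. Probes were named by the platform table, in which 30010 probes had 1 symbol, 29438 none and 0 several. The brightest probe stood for a gene, and the dimmest 30% of genes were left out.

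Comparisons used limma 3.58.1 in R 4.3.3 (lmFit, eBayes), all 20 arrays entering as 4 groups. The p-values were adjusted by Benjamini-Hochberg over 18311 genes (threshold 0.05), and the step was tested on simulated data. Those were drawn independently for each array without array set differences, so that test cannot show how such differences affect the calls. In the measured data the spread is that between single mice of a group. In the first fit it also holds the differences between array sets, since each group mixed sets. Members and lists were chosen with earlier results of these data known. Members called in a CRD, age or interaction contrast, in the first fit or the blocked fit, are named with every array's value, and comparison lists with up to 4 called genes. Same-numbered arrays of different groups were checked for pairing by their deviations from the group means over all genes tested. These correlated at -0.85 to 0.862 in 30 pairs, with 10 above 0.1, so the numbers do not pair arrays. Array sets came from average-linkage clustering after the data were seen. Alternatives were an array set block, array set A only, a replicate block, an offset of 16, other filters, all probes averaged, trend and robust moderation, the groups of a contrast alone, median centring and leaving out each array. Added after the data were seen were the acinar marker mean as a covariate and the block without set C. Ins1 is not analysed here.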

Additional observations from a re-analysis of the deposited data

Results flagged for a closer look

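In 108 groups of 5 arrays (27 members in 4 groups), 14 had 1 array whose gap to the nearest other array was over 0.71 of the range of its group (Dixon's test), where chance flags about 1 in 20 groups. In the 18-week CRD group replicate 2, its only array of set A, stood apart for Asns at 10.86 (the others 11.51 to 11.70), for Slc7a5 at 8.85 (from 9.48), for Slc3a2 at 10.57 (from 11.00) and for Gpt2 at 6.86 (from 7.68), all low, and for Sesn2 at 11.94, high (the others 9.89 or less). Replicate 1 of that group was low for Chac1 at 7.66, below 8.68 to 8.99 on the others.

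In the 39-week HFD group replicate 5, its only array of set B, was high for Mthfd2 at 8.30, Eif4ebp1 at 6.79 and Gpt2 at 7.54, with the nearest arrays at 7.98, 6.20 and 6.74. In the 39-week CRD group replicate 3, its only array of set C, was low for Slc7a3 at 5.47 (nearest 6.17) and Sesn2 at 10.91 (nearest 11.57). Replicate 4 there, of set A, was low for Psph at 6.58 (nearest 7.11), Slc3a2 at 10.27 (nearest 10.65) and Aldh18a1 at 9.20 (nearest 9.76).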

How the results depend on the processing

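Counts of members called are given as higher and lower, with the value without any change first. For CRD at 18 weeks (4 and 2) they were 2 and 4 in the blocked fit, with or without set C, 0 and 0 in array set A only, 2 and 1 with the acinar marker mean as a covariate, and 3 and 1 with only the groups of the contrast. For CRD at 39 weeks (0 and 6) they were 1 and 7 with the block, 1 higher in the block without set C, 1 higher with only those groups, 1 lower in set A only and 2 lower with the covariate. For the mean of both ages (3 and 6) set A only gave 1 and 2. For age on HFD (0 and 0) 1 member, Mthfd2, was lower with the block and with median centring. For age after CRD (0 and 0) only the groups of the contrast gave 1 and 6, and over all genes 1942 and 2882 against 0 and 5. The set A fit has 1 array of 18-week CRD, assumed to vary like the other groups, and fewer arrays throughout.

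Leaving out 1 array gave 3 to 11 higher and 1 to 5 lower at 18 weeks, 0 to 0 and 5 to 6 at 39 weeks, 3 to 4 and 5 to 7 for the mean, 0 to 0 and 0 to 1 for age on HFD, 0 to 1 and 0 to 9 for age after CRD, and 0 to 0 and 0 to 8 for the difference between CRD effects. The 18-week counts were 11 and 5 without HFD replicate 2 and 4 lower without CRD replicate 2; the cause was not tested. The replicate block, over numbers that do not pair the arrays, left 26 of 28 gene results on their side of the threshold and 2 below it, while over all genes it gave 2328 and 882 calls at 18 weeks (3120 and 1445 without it) and 477 and 527 at 39 weeks (641 and 887). The offset of 16, no filter, the mean of all probes and trend and robust moderation left all 28 on their side, and no called difference changed sign under any alternative run.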
